A study of Homo sapiens with 36 samples.

Results

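The 37 genes described here are protein-coding targets or regulators of p53, chosen by name from the pathway, among 57820 gene identifiers in the count table. RNA was sequenced from whole cultures of A2780 cells, an ovarian cancer cell line, as 36 libraries of 12 conditions with 3 libraries each. The cells were of 3 lines. The parental, platinum-sensitive line is called wt. The line called cis is its isogenic derivative, made resistant by chronic exposure to cisplatin. The line called cis SSP grew out of cis cells kept for a long time without serine and glycine, and had regained serine synthesis, so it is an outgrowth and not a set of independent lines. Each line was kept in complete medium or in medium lacking serine and glycine (-SG), both made with dialysed serum, and each of these with or without carboplatin, a platinum drug that crosslinks DNA. The labels give the drug as 6 M, a unit that other assays of the study write as micromolar. The conditions are named wt, wt carbo, wt -SG and wt -SG carbo, and likewise for cis and cis SSP, and the labels number the libraries from 1 to 36.

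The protein p53 is a transcription factor that DNA damage and other stresses stabilise. It binds a sequence made of a pair of decamers and switches on genes that halt the cell cycle, assist DNA repair, adjust metabolism or promote cell death. Several of its targets, such as the ubiquitin ligase MDM2 and the phosphatase PPM1D, act back on p53 and limit it. Here the members are ordered by role: 6 genes of feedback on p53, 10 of cell death, 10 of growth arrest and DNA damage, 6 of metabolism and autophagy, and 5 others.

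Around the annotated starts of 36 members (FAS had no canonical start in the annotation used), a window of 2500 bases on each side was searched for the 20-base p53 consensus without a spacer. The consensus is palindromic, so 1 search covers both strands, and no other motif was searched. A match with no mismatch lay near 2 of the 36 members (5.56%) against 0.0682% of 19067 protein-coding genes, one with at most 1 mismatch near 7 (19.4%) against 0.955%, and one with at most 2 near 18 (50.0%) against 11.7%. These matches describe letters in the genome and are not measured binding sites. Printed here from the GRCh37 assembly are 6 of the 7 best matches with at most 1 mismatch (the match in an intron of RRM2B is not printed), and those with 2 beside MDM2 and the members that carboplatin raised by more than 2 on the log2 scale in wt cells. They are given 5′ to 3′ on the strand of the gene, with capitals on the 4-base core of each decamer.

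PLK2 (chr5:57758101-57758120, minus strand, upstream, no mismatch): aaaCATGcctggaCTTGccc

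ZMAT3 (chr3:178787976-178787995, minus strand, intron, no mismatch): aaaCAAGtccagaCATGcct

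CCNG1 (chr5:162864932-162864951, plus strand, intron, 1 mismatch): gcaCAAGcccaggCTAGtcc

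DDB2 (chr11:47236520-47236539, plus strand, exon, 1 mismatch): aagCTGGtttgaaCAAGccc

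EDA2R (chrX:65858555-65858574, minus strand, intron, 1 mismatch): gaaCATGcctggaCGTGtcc

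GADD45A (chr1:68152458-68152477, plus strand, intron, 1 mismatch): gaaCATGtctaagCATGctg

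MDM2 (chr12:69202703-69202722, plus strand, intron, 2 mismatches): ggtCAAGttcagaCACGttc

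BTG2 (chr1:203272770-203272789, plus strand, upstream, 2 mismatches): acgCATGttcaggCATGcat

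PLK3 (chr1:45264264-45264283, plus strand, upstream, 2 mismatches): ggaCAAGgttggaGAAGttt

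INKA2 (chr1:112283960-112283979, minus strand, upstream, 2 mismatches): agaGTTGcctgggCTTGgcc

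TP53I3 (chr2:24309651-24309670, minus strand, upstream, 2 mismatches): ataCATCctcagaCATGttt

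The depth was 13074937 to 20441582 counts on genes per library (median 17663485). Leukocyte and endothelial marker genes were near 0 in every library (summed level at most 0.429 and 0.411 CPM, counts scaled to library size), while all 3 fibroblast markers reached 1 CPM (summed 5.83 to 409, mostly PDGFRA). Of 11 epithelial and Müllerian markers 6 reached that level in some library. PAX2 reached it in 12 libraries (at most 204 CPM), KRT18 in 30 (44.1 CPM) and KRT8 in 19 (6.45 CPM). EPCAM reached it in 11 (2.26 CPM), KRT19 in 6 (7.74 CPM) and WT1 in 3 (1.42 CPM). PAX8, SOX17, KRT7, CDH1 and MUC16 did not reach it in any. In these bulk samples, fewer cells that express a gene and less RNA of it per cell cannot be told apart. The libraries 25 (cis SSP) and 32 (cis SSP -SG) stood apart from the other libraries of their conditions. In each, 16 members lay at least 0.5 away on the log2 scale from the mean of the other libraries of that condition. In both, the deviation over genes ran against exon length (Spearman's rho -0.597 and -0.593), and their part in the results was not tested beyond the fits without them, which are given beside the counts they enter. In library 11 (wt -SG carbo) the deviation also ran against exon length (rho -0.57), with 1 member at least 0.5 away. The share of counts on no gene was 17.9% in library 23 and 14.86% in library 24 (both cis -SG carbo).

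Levels between members are compared as TPM, which divide by gene length as well as by library size. The length is that of all annotated exons of a gene merged, and the order was not tested with other lengths. In wt cells CCNG1, an atypical cyclin, was the highest member at 373 ± 15.9 TPM (SD, n = 3), followed by TNFRSF10B at 285 ± 5.04 TPM and TRIAP1 at 146 ± 5.15 TPM. MDM2 stood at 66.4 ± 1.99 TPM, FAS at 13.7 ± 0.597 TPM, INKA2 at 3.25 ± 0.123 TPM and PRDM1 at 0.911 ± 0.172 TPM. The lowest was PHLDA3, which had 0 to 1 counts in the wt libraries. The spread between libraries was wider than the gap between many neighbours in this order: RRM2B (68.7 ± 1.90), MDM2 and CMBL (65.1 ± 2.91) had overlapping SDs.

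All other levels are CPM after TMM scaling, and differences are log2 fold changes with their standard error. A gene is called higher or lower where edgeR's quasi-likelihood test gave a Benjamini-Hochberg adjusted p under 0.05 over all genes tested. The comparisons of drug, medium and line share the untreated libraries of a line, so their values are set side by side and not correlated. Because the study's figure legends describe replicates of sequencing as technical, p-values may measure only the spread between libraries of 1 experiment.

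**Figure D1:**
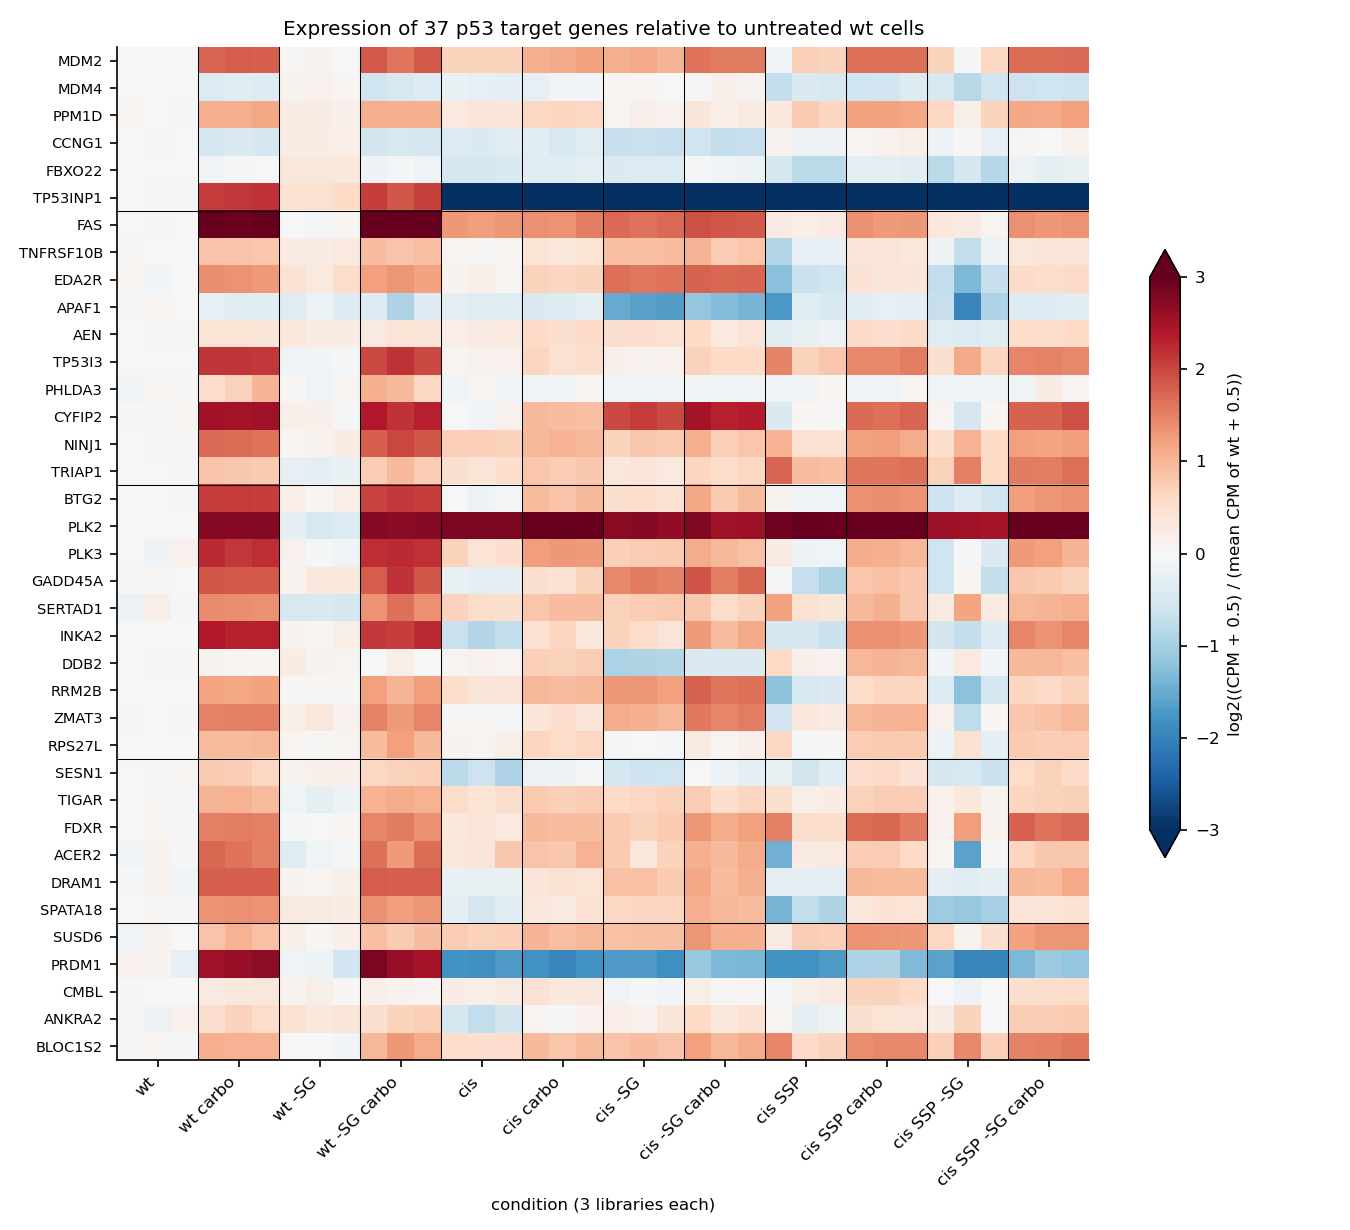
Level of the 37 p53 target genes (rows, grouped by role) in the 36 libraries (columns, grouped by condition), as log2 of the CPM plus 0.5 over the mean of the 3 wt libraries plus 0.5, with colours ending at ±3. The wt carbo and wt -SG carbo columns show the widest block of raised genes, TP53INP1 and PRDM1 are low in every cis and cis SSP column, and libraries 25 and 32 differ from the columns beside them.

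Carboplatin raised most p53 targets in wt cells. Of 36 members tested in complete medium, 32 were higher (88.9%) and 3 lower (8.33%), where 38.9% of all genes tested were higher and 39.0% lower. The median log2 fold change of the members was 1.39, against -0.001 over all genes. The called change was kept by 34 of 35 members whichever library was left out.

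Among the feedback genes, MDM2, which marks p53 for degradation, stood at 132, 133 and 133 CPM in wt and at 448, 465 and 461 CPM in wt carbo. All treated libraries lay far above all untreated ones. The log2 fold change was 1.81 ± 0.0225 (SE), or 3.5-fold. TP53INP1, a stress-induced partner of p53 signalling that also acts in autophagy, went from 32.9, 34.4 and 32.8 CPM to 144, 146 and 151 CPM (log2 2.15 ± 0.0364). PPM1D, which dephosphorylates p53, rose from 61.4, 59.2 and 56.9 CPM to 127, 126 and 132 CPM (log2 1.14 ± 0.033).

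The remaining feedback genes did not share that direction. CCNG1 was at 274, 283 and 274 CPM in wt and at 193, 204 and 196 CPM in wt carbo, groups that did not overlap (log2 -0.47 ± 0.0229, adjusted p = 2.89e-75). MDM4, an inhibitor of p53 related to MDM2, was at 130, 131 and 131 CPM and then at 98.3, 104 and 99.1 CPM (log2 -0.36 ± 0.0289, adjusted p = 1.05e-32). Every treated library was below every untreated one for both genes. FBXO22, the substrate-binding part of a ubiquitin ligase, was not called and its groups overlapped (log2 -0.03 ± 0.0273), but it was called lower when total counts replaced TMM scaling. Its exons share 16.2% of their bases with NRG4 on the opposite strand.

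Of the 9 cell death genes tested, 8 rose. FAS, a death receptor, was at 11.5, 11.9 and 11.6 CPM in wt and at 95.6, 93.5 and 95.5 CPM in wt carbo. This 8.21-fold rise (log2 3.04 ± 0.0513, adjusted p = 1.08e-294) was the largest of the tested members in these cells. Its exons share 10.7% of their bases with ACTA2 on the opposite strand, which the counting may not have separated. CYFIP2, a subunit of the WAVE complex that shapes the actin skeleton, had 27.6, 27.2 and 29.7 CPM without and 163, 160 and 165 CPM with the drug (log2 2.55 ± 0.0368). TP53I3, a quinone oxidoreductase, had 34.4, 34.7 and 34.5 CPM without and 155, 154 and 152 CPM with it (log2 2.17 ± 0.0356). In each of these genes the groups were far apart.

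Lower rises were seen in the receptors EDA2R (log2 1.38 ± 0.0485) and TNFRSF10B, which binds TRAIL (0.86 ± 0.0193), in NINJ1, a membrane protein of lytic cell death (1.70 ± 0.0339), in TRIAP1, a mitochondrial protein that restrains apoptosis (0.84 ± 0.0378), and in the exonuclease AEN (0.41 ± 0.0285). APAF1, the scaffold of the apoptosome, went the other way, with 42, 45 and 43.1 CPM in wt and 36.8, 34 and 34.8 CPM in wt carbo (log2 -0.28 ± 0.0481, adjusted p = 1.23e-08). Its groups did not overlap. PHLDA3, an inhibitor of AKT, was too low to be tested: it had 0 to 1 counts in wt and 5 to 10 in wt carbo, at least 2.48-fold higher against a floor of 3 counts per library.

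All 10 genes of growth arrest and DNA damage were called higher, with a median log2 fold change of 1.70. PLK2, a polo-like kinase, stood at 13.4, 13.3 and 13.4 CPM in wt and at 92.3, 91.8 and 92.9 CPM in wt carbo (log2 2.80 ± 0.0502), and has an exact consensus match upstream. PLK3, a stress-induced kinase of the same family, was at 10.2, 9.21 and 11.2 CPM and then at 49.8, 45.9 and 48.9 CPM (log2 2.25 ± 0.0626). INKA2, an inhibitor of the kinase PAK4, had 4.93, 5.05 and 4.98 CPM without and 28.3, 26.7 and 27.2 CPM with the drug (log2 2.47 ± 0.0847). No treated library of these genes came near an untreated one.

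BTG2, an antiproliferative protein, rose by log2 2.11 ± 0.0299, GADD45A, a stress sensor in growth arrest and repair, by 1.88 ± 0.0486, ZMAT3, an RNA-binding zinc finger protein, by 1.52 ± 0.0291, and SERTAD1, which binds CDK4, by 1.42 ± 0.0436. RRM2B, the p53-inducible subunit of ribonucleotide reductase, rose by 1.21 ± 0.0276 and the ribosomal protein paralogue RPS27L by 0.99 ± 0.0296. DDB2, which recognises ultraviolet lesions for nucleotide excision repair, was the least changed: it had 68, 67.4 and 70.5 CPM in wt and 73.8, 71 and 71.1 CPM in wt carbo. The groups lay side by side without overlapping (log2 0.09 ± 0.0367, adjusted p = 0.0268), and the call was lost without library 1, 2 or 4.

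All 6 genes of metabolism and autophagy rose: DRAM1, a lysosomal protein of autophagy (log2 1.81 ± 0.0307), the ceramidase ACER2 (1.79 ± 0.119), the mitochondrial ferredoxin reductase FDXR (1.54 ± 0.0374), SPATA18, which acts in mitochondrial quality control (1.40 ± 0.0537), TIGAR, a fructose bisphosphatase (1.03 ± 0.028), and the sestrin SESN1 (0.74 ± 0.0596). TIGAR shares 18.1% of its exon bases with another gene on the same strand. Of the other members, PRDM1, a transcriptional repressor, was at 1.66, 1.61 and 1.15 CPM in wt and at 11.1, 11.7 and 12.2 CPM in wt carbo (7.99-fold, SE of the log2 value 0.141). These libraries were well separated although the gene was low. BLOC1S2, a subunit of an organelle biogenesis complex, rose by 1.08 ± 0.0402, the membrane protein SUSD6 by 0.96 ± 0.0577, the ankyrin repeat protein ANKRA2, which overlaps UTP15 in 8.1% of its exon bases, by 0.62 ± 0.0815 and the hydrolase CMBL by 0.33 ± 0.0336.

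**Figure D2:**
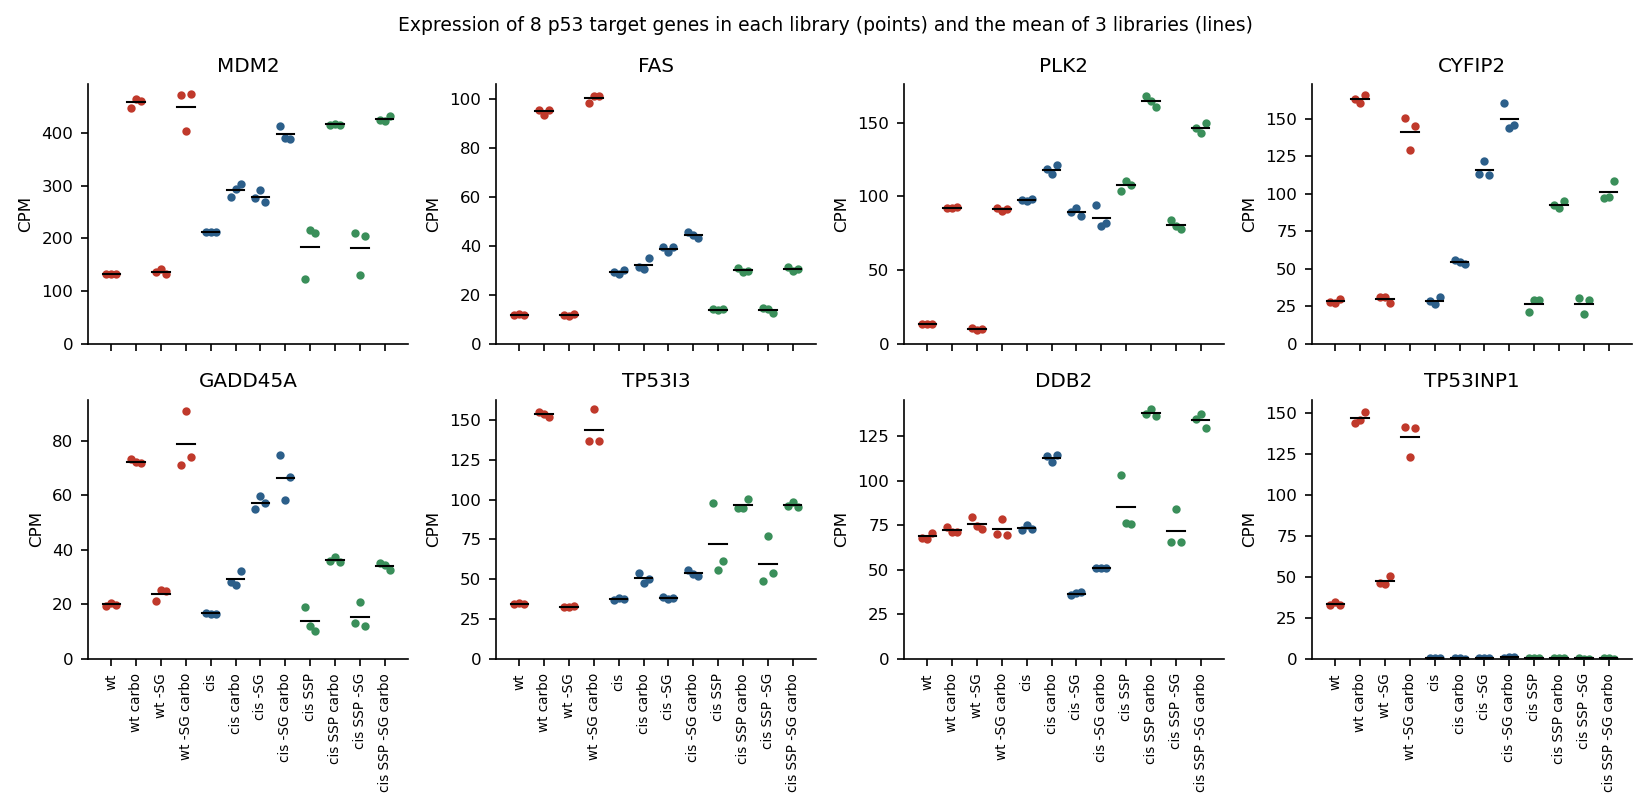
Level in CPM of 8 members in every library, 1 point per library and a line at the mean of the 3 libraries of a condition. In wt cells the drug moves DDB2 least of the 8, from 67.4 to 70.5 CPM up to 71 to 73.8 CPM, whereas DDB2 reaches 111 to 114 CPM in cis carbo, and CYFIP2 and GADD45A are high in cis -SG without the drug.

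Carboplatin also raised most members in wt cells kept without serine and glycine. There 29 of 36 were higher (80.6%) and 3 lower (8.33%), beside 34.3% and 34.6% of all genes tested, and the median was 1.22. Without library 11, 29 were higher and 3 lower, beside 36.6% and 36.7% of all genes. Across the 36 members the log2 fold changes in both media had Pearson's r of 0.971 and Spearman's rho of 0.958, a description over genes that are not independent. Whether the response differed between media was not tested in wt cells. PRDM1 was at 1.32, 1.26 and 0.836 CPM in wt -SG and at 13.5, 11.6 and 10.5 CPM in wt -SG carbo (log2 3.37 ± 0.176, adjusted p = 2.06e-07). PLK2 stood at 10.8, 9.47 and 9.9 CPM against 92.1, 89.8 and 91.5 CPM (log2 3.20 ± 0.0688), and FAS at 11.6, 11.2 and 12.2 CPM against 98.4, 101 and 101 CPM (log2 3.14 ± 0.0613). The treated libraries were all far above the untreated ones for these genes.

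MDM2 reached 471, 404 and 474 CPM from 136, 142 and 132 CPM (log2 1.75 ± 0.0738). The members that fell were CCNG1, from 325, 323 and 318 CPM to 190, 198 and 191 CPM (log2 -0.70 ± 0.0497, adjusted p = 1.41e-06), MDM4, from 140, 144 and 137 CPM to 85.8, 93.7 and 97.4 CPM (-0.57 ± 0.0609), and FBXO22, from 177, 176 and 174 CPM to 126, 138 and 128 CPM (-0.40 ± 0.0541). None of these groups overlapped. DDB2 (-0.03 ± 0.0678), CMBL (0.03 ± 0.059), AEN (0.12 ± 0.0582) and APAF1 (-0.21 ± 0.14) were not called. ANKRA2 (0.29 ± 0.0892, adjusted p = 0.0166) lost its call without library 8, 9 or 12. PHLDA3 had 0 to 1 counts in wt -SG and 5 to 9 in wt -SG carbo, at least 2.99-fold higher.

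Without any drug, cis cells already differed from wt cells in most members. Of 36 tested, 17 were higher (47.2%) and 13 lower (36.1%) in cis, beside 39.4% and 39.1% of all genes, so the members were called about as often as other genes. The 13 lower members include TP53INP1 and PRDM1. These genes passed the filter on low counts only through their wt libraries, so their direction was fixed in advance. The largest differences were in 4 genes. PLK2 was at 13.4, 13.3 and 13.4 CPM in wt and at 97.2, 97.1 and 98 CPM in cis (log2 2.83 ± 0.0497, adjusted p = 1.99e-40), which exceeds the level in wt carbo. FAS had 29.4, 28.4 and 30.1 CPM in cis, against 11.5 to 11.9 CPM in wt (log2 1.29 ± 0.0685). The third was TP53INP1, which was nearly silent in cis with 0.198, 0.216 and 0.113 CPM, or 2 to 4 counts, against 32.8 to 34.4 CPM in wt.

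The fitted log2 fold change of TP53INP1 (-7.55 ± 0.159) depends on the prior count at such low numbers and is not a bound. PRDM1 had 1 to 2 counts in cis and 22 to 30 in wt, at least 8.35-fold lower in cis. Both genes stayed low in every cis and cis SSP library, with TP53INP1 at most 0.89 CPM and PRDM1 at most 0.555 CPM. INKA2 had 2.97, 2.49 and 2.76 CPM in cis, below all 3 wt libraries (log2 -0.90 ± 0.148), and SUSD6 had 32.8, 31.6 and 32.1 CPM, above the 17.8, 20.7 and 19.2 CPM of wt (log2 0.71 ± 0.0621).

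Of the feedback genes 2 were higher in cis and 4 lower. MDM2 was at 211, 212 and 212 CPM in cis, above the 132 to 133 CPM of wt (log2 0.65 ± 0.0275, adjusted p = 3.24e-25), and PPM1D was higher by 0.32 ± 0.0408. FBXO22 (-0.54 ± 0.0311), CCNG1 (-0.43 ± 0.0262) and MDM4 (-0.27 ± 0.0311) were lower. In the cell death group NINJ1 (0.68 ± 0.0423), TRIAP1 (0.43 ± 0.0428) and AEN (0.22 ± 0.033) were also higher and APAF1 was lower (-0.38 ± 0.0503), while TP53I3, TNFRSF10B, EDA2R and CYFIP2 were not called, with log2 values from -0.02 to 0.10. BTG2 (-0.11 ± 0.0457, adjusted p = 0.0328) lost its call without library 1, 2 or 14, and RPS27L (0.09 ± 0.0368) without any of 4 of the 6 libraries.

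The study asked how the sensitive and the resistant line differ in their answer to platinum. In cis cells in complete medium carboplatin raised most members, but by less than in wt cells. It raised 32 of the 34 tested (94.1%) and lowered none (0.0%), beside 9.27% and 10.8% of all genes tested. In one fit over 36 libraries, which shares 1 estimate of the spread, 17 were called higher in cis and 31 in wt. Of all genes in that fit, 1.31% were called higher in cis and 27.3% in wt. In the fit of the cis libraries alone the median log2 fold change of the members was 0.44, and only INKA2 and BTG2 exceeded 1. TP53INP1, PRDM1 and PHLDA3 did not pass the filter on low counts in these cells.

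INKA2 was at 2.97, 2.49 and 2.76 CPM in cis and at 7.07, 8.06 and 6.36 CPM in cis carbo (log2 1.41 ± 0.145, adjusted p = 2.25e-08). BTG2 went from 53.3, 47.2 and 50.7 CPM to 102, 95.9 and 105 CPM (log2 1.03 ± 0.0447), and CYFIP2 from 28.1, 26.7 and 30.8 CPM to 55.5, 54.1 and 53.2 CPM (log2 0.96 ± 0.054). MDM2 went from 211, 212 and 212 CPM to 278, 294 and 304 CPM (log2 0.49 ± 0.0306, adjusted p = 8.06e-13). In each case all treated libraries were above all untreated ones, but MDM2 in cis carbo stayed under the 448 to 465 CPM of wt carbo.

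By role, 4 of 5 feedback genes tested were higher in cis (median log2 0.20), 8 of 9 of cell death (0.35), all 10 of growth arrest and damage (0.61), all 6 of metabolism and autophagy (0.65), and all 4 others tested (0.36). CCNG1 (0.03 ± 0.0326) and APAF1 (-0.00 ± 0.0571), both lower in wt carbo, were not called in cis. FAS had 31.3, 30.5 and 34.9 CPM in cis carbo, hardly above its 28.4 to 30.1 CPM in cis (log2 0.17 ± 0.0597, adjusted p = 0.0456), and the call was lost without library 13, 14 or 18. The calls of ACER2 (0.45 ± 0.14, adjusted p = 0.0232) and MDM4 (0.11 ± 0.0399, adjusted p = 0.0456) also hung on single libraries: the first was lost without library 13, 14 or 18 and the second in 5 of the 6 fits that left a library out.

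Tested directly, by an interaction term over the 12 libraries of both lines, the response differed between the lines for 31 of the 34 members that passed the filter in both. It was lower in cis for 26 (76.5%) and higher for 5 (14.7%), beside 29.8% and 34.8% of the genes that passed it in both lines, and 27.2% and 30.3% of all genes in the fit. FAS differed most (log2 difference -2.86 ± 0.0789, adjusted p = 3.26e-38), then PLK2 (-2.49 ± 0.0589), TP53I3 (-1.70 ± 0.0616) and CYFIP2 (-1.58 ± 0.0671). For MDM2 the difference was -1.32 ± 0.0381. The fitted differences of PRDM1 (-3.73 ± 1.19, adjusted p = 0.0058) and TP53INP1 (-2.80 ± 0.75, adjusted p = 0.00109) rest on cis libraries with 0 to 4 counts. Both genes passed the filter only through their wt libraries and are left out of these counts. The call of PRDM1 was lost without library 15 and that of CMBL in 1 fit.

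The 5 members with a higher response in cis were DDB2, CCNG1, MDM4, APAF1 and FBXO22, and these include all 3 members that fell in wt cells. DDB2 was at 72.2, 75.3 and 72.8 CPM in cis and at 114, 111 and 114 CPM in cis carbo (log2 0.65 ± 0.0365), while wt and wt carbo lay between 67.4 and 73.8 CPM. The difference of the responses was 0.57 ± 0.0508 for DDB2, 0.51 ± 0.0404 for CCNG1, 0.48 ± 0.0485 for MDM4, 0.29 ± 0.0737 for APAF1 and 0.24 ± 0.0447 for FBXO22. SESN1 (-0.05 ± 0.106), AEN (-0.09 ± 0.0436) and ANKRA2 (0.14 ± 0.136) did not pass the test. Over the 34 members tested in both lines the responses had Pearson's r of 0.515 and Spearman's rho of 0.485, as a description over genes, and 28 of them were larger in wt.

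**Figure D3:**
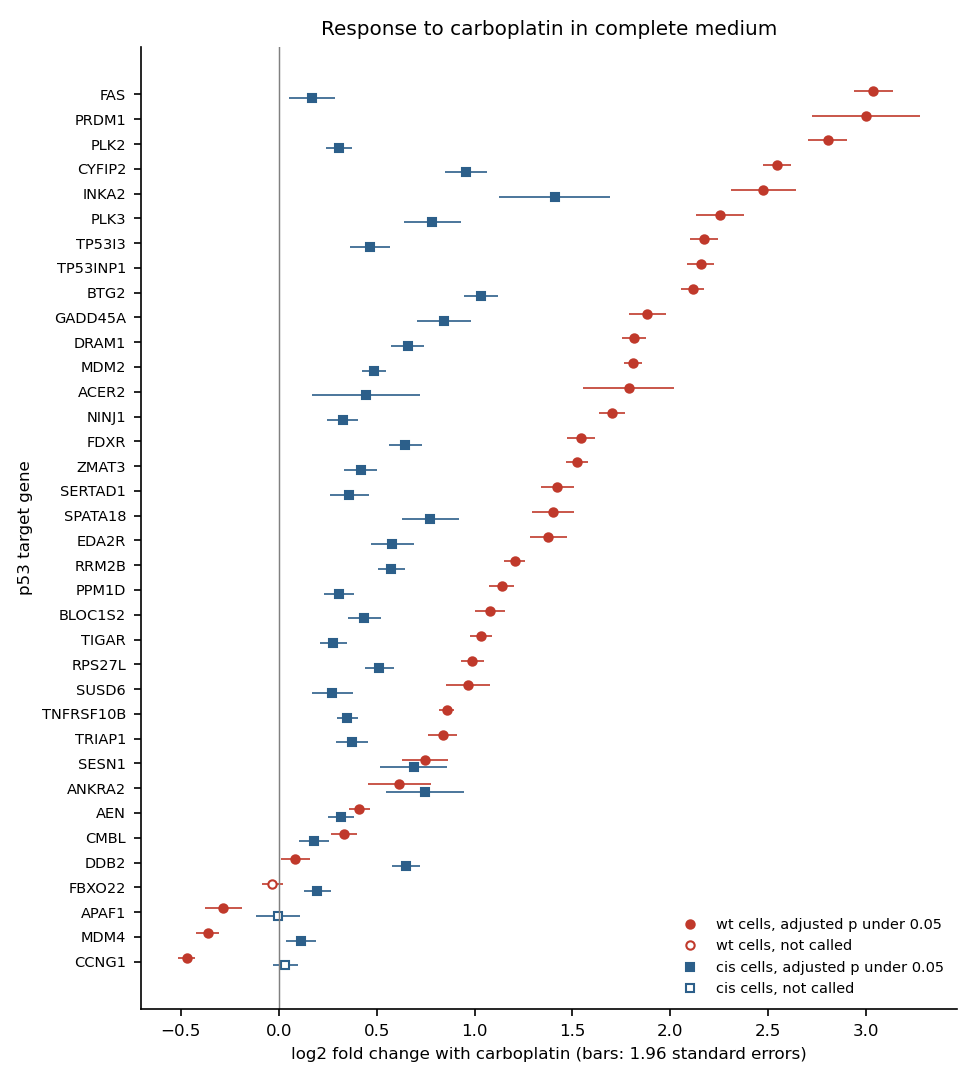
Log2 fold change by carboplatin in complete medium of each tested member in wt (red) and cis (blue) cells, with bars of 1.96 standard errors and filled points where the adjusted p is under 0.05. The red points spread from -0.47 to 3.04, the blue ones from -0.00 to 1.41, and DDB2, CCNG1, MDM4, APAF1 and FBXO22 are the genes whose blue point is clearly right of the red one.

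Taking serine and glycine away moved the members of wt cells little. In wt -SG 17 of 36 were higher (47.2%) and 5 lower (13.9%) than in wt, beside 24.1% and 25.1% of all genes, with a median of 0.13 and no log2 fold change beyond ±0.52. TP53INP1 was at 32.9, 34.4 and 32.8 CPM in wt and at 46.2, 45.8 and 50.5 CPM in wt -SG (log2 0.52 ± 0.0501, adjusted p = 3.66e-08). EDA2R had 25.5, 22.7 and 23.6 CPM and then 32.4, 29.4 and 35.2 CPM (0.44 ± 0.0679), and ANKRA2 10.7, 9.27 and 11.5 CPM and then 14.5, 13.2 and 13.6 CPM (0.40 ± 0.089). The groups of all 3 genes were apart by a small margin.

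SERTAD1 was lower in wt -SG, with 22.1, 22.4 and 21.2 CPM against 27.4, 35.5 and 30.1 CPM (log2 -0.49 ± 0.0795, adjusted p = 0.000131). PLK2 had 10.8, 9.47 and 9.9 CPM against 13.3 to 13.4 CPM in wt (-0.39 ± 0.0825), and APAF1 had 33.7, 38.2 and 32.8 CPM against 42 to 45 CPM (-0.30 ± 0.0549). TRIAP1 and TIGAR were the other 2 lower members. MDM2 (0.06 ± 0.0314), FAS (0.00 ± 0.0799) and CYFIP2 (0.10 ± 0.063) were not called. The calls of CMBL, DRAM1 and NINJ1 were lost in some fits without 1 library.

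In cis cells the same deprivation moved members further and in both directions. Of 34 tested 23 were higher (67.6%) and 8 lower (23.5%) in cis -SG, beside 37.6% and 37.4% of all genes, with a median of 0.25. CYFIP2 was at 28.1, 26.7 and 30.8 CPM in cis and at 113, 122 and 113 CPM in cis -SG (log2 2.05 ± 0.0472, adjusted p = 9.66e-36). GADD45A had 16.9, 16.5 and 16.4 CPM in cis and 55.1, 59.7 and 57 CPM in cis -SG (1.81 ± 0.0566), and EDA2R had 25.9, 27.4 and 25.2 CPM and then 76.3, 72.8 and 74.6 CPM (1.54 ± 0.0496). The deprived libraries of these genes were far above the fed ones, and also above all cis carbo libraries.

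INKA2 (log2 1.49 ± 0.138), DRAM1 (1.09 ± 0.0417), ZMAT3 (1.08 ± 0.0377), SPATA18 (1.07 ± 0.0683), TNFRSF10B (0.88 ± 0.0273) and RRM2B (0.88 ± 0.0344) also rose. MDM2 rose from 211, 212 and 212 CPM to 276, 292 and 268 CPM (0.42 ± 0.0299, adjusted p = 4.18e-17), with no overlap.

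The members that fell most in cis -SG were APAF1, from 35.4, 33.4 and 33.8 CPM to 14.8, 13.6 and 13.2 CPM (log2 -1.27 ± 0.0663, adjusted p = 4.83e-22), and DDB2, from 72.2, 75.3 and 72.8 CPM to 35.5, 36.7 and 37.2 CPM (-0.98 ± 0.0455, adjusted p = 5.04e-24). CMBL went from 88.3, 87.3 and 91.5 CPM to 71.2, 74.2 and 72.4 CPM (-0.27 ± 0.0387). All 3 genes had deprived libraries below every fed one. CCNG1 (-0.26 ± 0.0309), PPM1D (-0.20 ± 0.0413), RPS27L (-0.13 ± 0.0396), PLK2 (-0.10 ± 0.0365) and TRIAP1 (-0.10 ± 0.0437) fell by less, and TRIAP1 lost its call in 4 of 6 fits without 1 library.

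By role, all 10 genes of growth arrest and damage changed, 7 up and 3 down, and in metabolism and autophagy 5 of 6 rose. In cell death 5 of 9 tested rose and 2 fell, in feedback 3 rose and 2 fell, and of the others 3 rose and 1 fell. These counts per role are small and stand beside 37.6% of all genes higher and 37.4% lower.

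The interaction test found a different response to deprivation in cis and wt for 27 of the 34 members that passed the filter in both. It was higher in cis for 20 (58.8%) and lower for 7 (20.6%). Of the 13099 genes that passed it in both lines, 3809 were called higher and 4061 lower. Of all genes in the fit these were 27.1% and 26.9%. TP53INP1 and PRDM1, which passed the filter only through their wt libraries, are left out of these counts. CYFIP2 differed by 1.96 ± 0.0807 on the log2 scale (adjusted p = 1.54e-20), GADD45A by 1.57 ± 0.0887, INKA2 by 1.38 ± 0.181 and EDA2R by 1.11 ± 0.083. DDB2 (-1.12 ± 0.06), APAF1 (-0.96 ± 0.0858) and CCNG1 (-0.48 ± 0.0386) were the most negative. For MDM2 the difference was 0.38 ± 0.0429, and SESN1, SUSD6, AEN and NINJ1 were among those not called. The call of TRIAP1 was lost in 9 of 12 fits without 1 library.

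**Figure D4:**
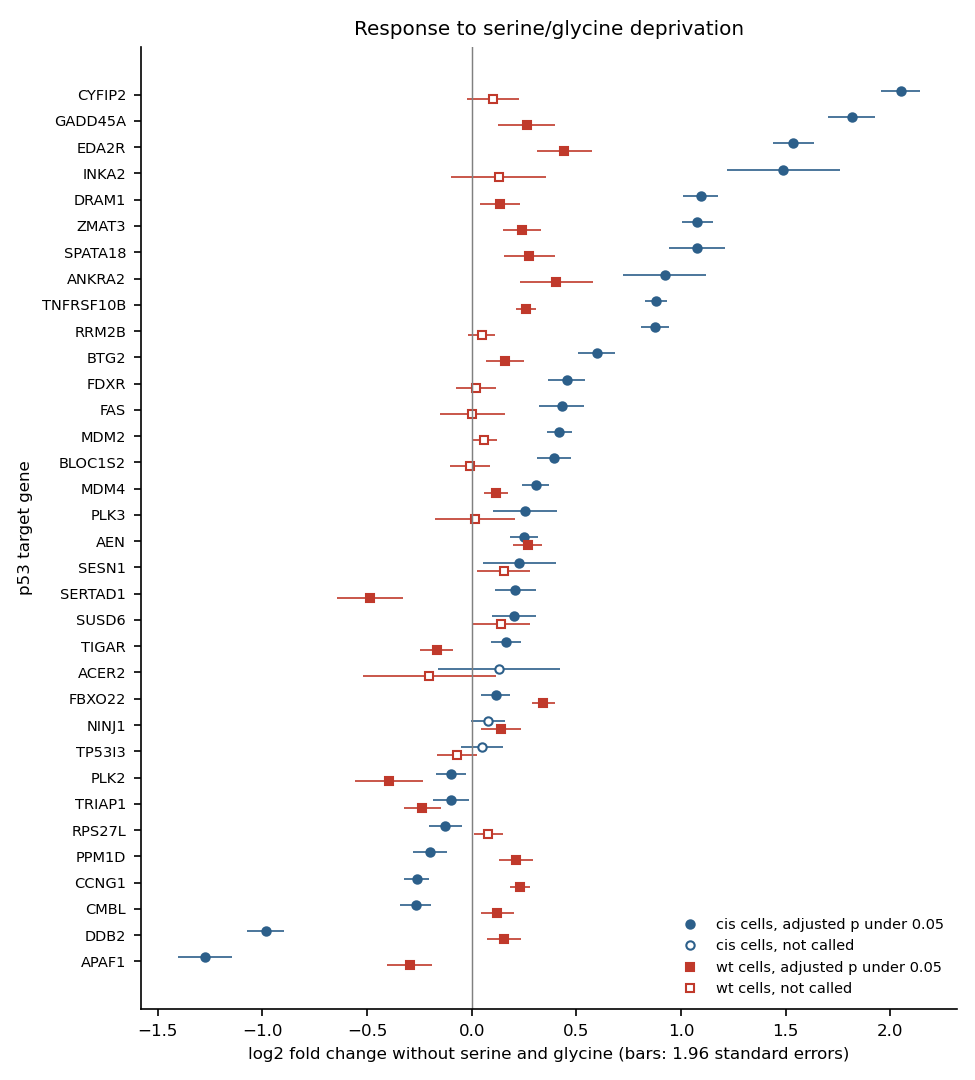
Log2 fold change by serine and glycine deprivation of each member tested in cis cells, in cis (blue) and wt (red) cells, with bars of 1.96 standard errors and filled points where the adjusted p is under 0.05. The blue points run from -1.27 for APAF1 to 2.05 for CYFIP2, whereas every red point lies between -0.49 and 0.52. TP53INP1, which has the wt value of 0.52, was not tested in cis cells and is not drawn.

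Carboplatin given to deprived cis cells raised 28 of 34 members (82.4%) and lowered none (0.0%), beside 10.9% and 11.6% of all genes tested, with a median of 0.33. Libraries 23 and 24 had a high share of counts on no gene. Leaving out 23 gave 29 called higher, beside 9.32% of all genes higher and 9.65% lower. Leaving out 24 gave 24, beside 5.56% and 5.77%. Without both, 1 treated library remained, so only the median of the members is given, 0.376. INKA2 was at 8.3, 7.55 and 6.72 CPM in cis -SG and at 12.7, 9.96 and 11.6 CPM in cis -SG carbo (log2 0.69 ± 0.106, adjusted p = 0.000506). MDM2 had 276, 292 and 268 CPM without and 413, 390 and 388 CPM with the drug (0.60 ± 0.0329), and TP53I3 had 38.6, 37.4 and 38 CPM without and 56, 52.9 and 52.1 CPM with it (0.59 ± 0.0456). Treated and untreated libraries of these genes did not overlap. DDB2 (0.58 ± 0.0504) and APAF1 (0.43 ± 0.0782), both lowered by deprivation, were higher with the drug. Single libraries decided the calls of NINJ1, CCNG1, ANKRA2 and ACER2.

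The response to carboplatin of cis cells without serine and glycine, against that in complete medium, was lower for 15 of 34 members (44.1%) and higher for 2 (5.88%) by the interaction term, beside 6.17% and 5.91% of all genes. They were 15 and 1 without library 23, beside 7.61% of all genes lower and 4.19% higher. Without library 24 they were 14 and 2, beside 5.78% and 3.27%. Without both, 1 cis -SG carbo library remained, so only the median difference of the members is given, -0.109, against -0.098 over all libraries. INKA2 (-0.72 ± 0.182, adjusted p = 0.00892), GADD45A (-0.53 ± 0.092, adjusted p = 0.000275) and CYFIP2 (-0.49 ± 0.0632, adjusted p = 7.2e-06) were the most negative. These genes were higher in cis -SG than in cis, as were 23 of the 34 members tested, MDM2 among them. Whether this bears on the response to the drug was not tested. In cis -SG carbo CYFIP2 reached 160, 144 and 146 CPM and GADD45A 74.7, 58.2 and 66.7 CPM, the highest mean levels of both genes in the cis line. The response of APAF1 was higher (0.44 ± 0.0956), as was that of FBXO22 (0.19 ± 0.0488), whose call was lost in 7 of 12 fits without 1 library. For MDM2 the difference was 0.12 ± 0.0469 and was not called.

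In cis SSP cells the count of called members depended on library 25. Over all 6 libraries in complete medium carboplatin raised 13 of 34 members (38.2%) and lowered none (0.0%), beside 1.97% and 0.749% of all genes, with a median of 0.73. Without library 25 it raised 32 members and lowered none, with a median of 0.755, and the shares of all genes were then 21.9% and 19.2%. Leaving out any of libraries 28, 29 and 30 instead left 1 or 2 called, beside 0.0636% to 0.141% of all genes higher and 0.0% to 0.0141% lower. Without library 26 or 27, 5 were called. Of all genes, 0.396% were then higher and 0.0636% lower without library 26, and 0.333% and 0.0495% without library 27.

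INKA2 was at 3.39, 3.35 and 2.99 CPM in cis SSP and at 13.8, 13.8 and 13 CPM in cis SSP carbo (log2 2.06 ± 0.113, adjusted p = 0.00164, and 2.09 ± 0.125 without library 25). CYFIP2 had 20.8, 29.3 and 28.8 CPM without and 92.5, 90.1 and 95.3 CPM with the drug (1.81 ± 0.152, and 1.67 ± 0.0496 without library 25). BTG2 had 56.9, 48.1 and 48 CPM without and 137, 141 and 135 CPM with it (1.43 ± 0.107, and 1.51 ± 0.0393). The treated libraries of all 3 genes were far above the untreated ones, library 25 included.

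In MDM2 library 25 decided the call. The gene was at 122, 216 and 210 CPM in cis SSP, with library 25 the lowest, and at 416, 417 and 416 CPM in cis SSP carbo. Although the groups did not overlap, the adjusted p was 0.0542 (log2 1.19 ± 0.224), and without library 25 the value was 0.96 ± 0.0255. FAS was less touched, with 14.1, 13.5 and 14.1 CPM in cis SSP and 31, 29.3 and 29.7 CPM in cis SSP carbo (1.11 ± 0.0904, and 1.12 ± 0.0722 without library 25).

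**Figure D5:**
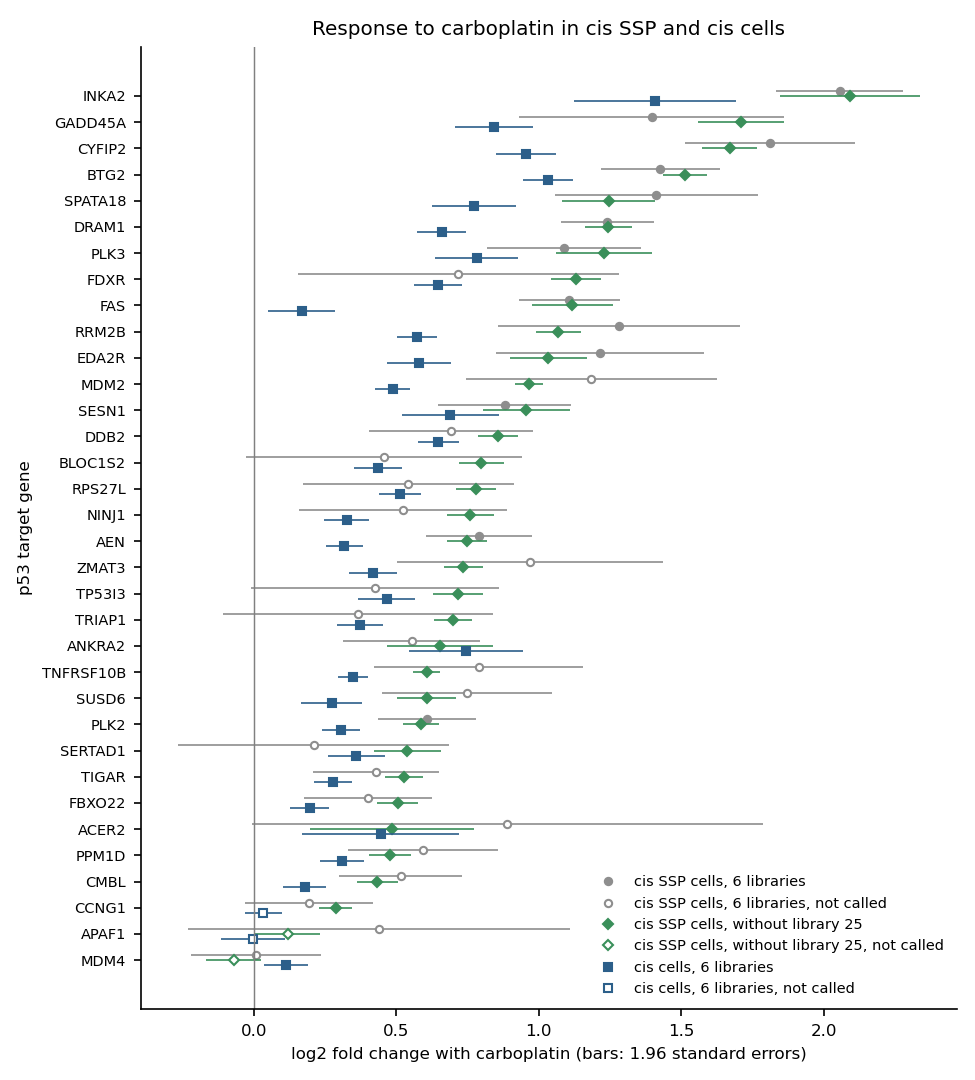
Log2 fold change by carboplatin in complete medium of each tested member in cis SSP cells over 6 libraries, in cis SSP cells without library 25, and in cis cells, with bars of 1.96 standard errors and filled points where the adjusted p is under 0.05. Without library 25 the bars of cis SSP shorten and 32 of 34 members are filled, and most of them, FAS and GADD45A among them, lie to the right of the cis points.

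Compared by the interaction term, the response of cis SSP was higher than that of cis for 2 of 34 members (5.88%), FAS (log2 difference 0.94 ± 0.0987, adjusted p = 0.00208) and DRAM1 (0.58 ± 0.0792, adjusted p = 0.00904), and lower for none (0.0%), beside 0.423% and 0.0832% of all genes. Without library 25 it was higher for 28 and lower for none, beside 9.38% and 4.89% of all genes in that fit, with FAS at 0.95 ± 0.0955, GADD45A at 0.87 ± 0.11, CYFIP2 at 0.72 ± 0.0753 and MDM2 at 0.48 ± 0.0422. FAS and DRAM1 (0.59 ± 0.0607 without library 25) were called in every fit that left out 1 library. DRAM1 was at 45, 44.6 and 45.2 CPM in cis SSP and at 109, 105 and 106 CPM in cis SSP carbo, where cis had 47.2, 46.6 and 46.9 CPM and cis carbo 70.7, 74.5 and 73.1 CPM. All treated cis SSP libraries stood above all treated cis ones.

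Untreated cis SSP cells differed from untreated cis cells in 8 of 34 members, 3 higher (8.82%) and 5 lower (14.7%), beside 15.8% and 13.3% of all genes. Without library 25 there were 10 and 12 (29.4% and 35.3%), near the 32.9% and 32.5% of all genes in that fit. FAS was at 14.1, 13.5 and 14.1 CPM in cis SSP, below the 28.4 to 30.1 CPM of cis (log2 -1.05 ± 0.0913, adjusted p = 0.000553, and -1.04 ± 0.0766 without library 25). RRM2B had 38, 63.6 and 65.7 CPM in cis SSP against 128, 117 and 116 CPM in cis (-1.08 ± 0.224, and -0.85 ± 0.0458 without library 25), and EDA2R had 9.76, 15 and 15.6 CPM against 25.9, 27.4 and 25.2 CPM (-0.93 ± 0.195, and -0.73 ± 0.0777). All cis SSP libraries of these genes were below all cis libraries.

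TP53I3 was higher in cis SSP, with 98.1, 55.9 and 61.3 CPM against 36.6, 38 and 37.6 CPM (log2 0.96 ± 0.214, and 0.69 ± 0.0539 without library 25). TRIAP1 had 166, 93.5 and 93.2 CPM against 69.2, 64.4 and 70.9 CPM (0.80 ± 0.234, and 0.50 ± 0.0447), and ANKRA2 had 11, 8.68 and 9.4 CPM against 7.06, 6.06 and 6.99 CPM (0.56 ± 0.134, and 0.48 ± 0.119). Library 25 was the highest of all 3 genes, and the other 2 libraries were still above every cis library. The calls of TP53I3, RRM2B, TRIAP1, EDA2R, AEN, ANKRA2 and PLK3 were lost when any of the cis libraries was left out, and FAS kept its call.

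Deprivation of cis SSP cells gave no called member of 34, beside 0.0218% of all genes called higher and 0.0% called lower by edgeR. At an unadjusted p under 0.05 there were 2 members, and DESeq2 also called 0. When both libraries 25 and 32, which stand apart in the conditions compared, were left out, 2 members were higher and 14 lower, beside 18.9% and 17% of all genes in that fit, led by BTG2 (log2 -0.49 ± 0.0572) and PLK2 (-0.44 ± 0.043). BTG2 was at 56.9, 48.1 and 48 CPM in cis SSP and at 34.1, 40 and 34.6 CPM in cis SSP -SG, groups that did not overlap even with all libraries. CYFIP2, the member most raised by deprivation in cis cells, had 30.1, 19.7 and 29.1 CPM in cis SSP -SG and 20.8, 29.3 and 28.8 CPM in cis SSP (-0.01 ± 0.232, and 0.02 ± 0.0654 without both libraries), and the groups overlapped.

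In deprived cis SSP cells carboplatin raised 16 of 34 members (47.1%) and lowered none (0.0%), beside 1.17% and 0.295% of all genes, with a median of 0.89. Without library 32 it raised 33 and lowered none, beside 21.1% and 19.9% of all genes in that fit. Leaving out any of libraries 31, 33, 34, 35 and 36 instead left 0 or 1 called. In those fits at most 0.0218% of all genes were higher and at most 0.00729% lower. INKA2 was at 3.26, 2.87 and 3.68 CPM in cis SSP -SG and at 14.7, 13.5 and 14.7 CPM with the drug (log2 2.12 ± 0.129, adjusted p = 0.00482, and 2.07 ± 0.123 without library 32). CYFIP2 went to 97.3, 97.7 and 108 CPM (1.94 ± 0.17, and 1.79 ± 0.0522 without library 32) and BTG2 to 128, 134 and 137 CPM (1.87 ± 0.112, and 1.97 ± 0.0454). Each treated library of these genes was far above every untreated one. MDM2 went from 210, 130 and 204 CPM to 425, 422 and 432 CPM (1.23 ± 0.186, adjusted p = 0.0403, and 1.06 ± 0.0286 without library 32).

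The genes at the bottom of the counts need a floor of 3 counts per library. PRDM1, at 1 to 2 counts in cis SSP, had 5 to 10 in cis SSP carbo, at least 2.47-fold higher. It had 1 to 2 counts in cis -SG and 5 to 7 in cis -SG carbo, at least 1.98-fold higher, and 0 to 3 in cis SSP -SG and 4 to 6 in cis SSP -SG carbo, at least 2.07-fold higher. TP53INP1 had 2 to 5 counts in cis -SG and 9 to 16 in cis -SG carbo (0.517, 0.89 and 0.804 CPM), which are also apart, and 0 to 4 in cis carbo. PHLDA3 was at 0 to 2 counts in all cis and cis SSP libraries, so no fold is given there.

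Other genes of the pathway were counted as fixed lists, to be read beside the shares of all genes given for each comparison. Of the 24 other p53 targets, 21 were tested in wt cells. Carboplatin raised 19 and lowered 2, beside 38.9% and 39.0% of all genes, with a median of 1.13. GDF15, a stress-induced cytokine, went from 45.8 ± 2.63 to 878 ± 15.8 CPM (SD, n = 3; log2 4.28) and LIF, another cytokine, from 19.7 ± 1.17 to 329 ± 11.8 CPM (4.08). PERP, a membrane protein of cell junctions, had 0.125 ± 0.0782 CPM before and 2.00 ± 0.14 CPM after the drug. In cis cells 14 of 20 were raised and none lowered (median 0.31), beside 9.27% and 10.8% of all genes. GDF15 was at 2.15 and LIF at 1.05 on the log2 scale. The interaction term gave a lower response in cis for 18 of 21 and a higher one for 1, beside 27.2% and 30.3%. Deprivation raised 11 and lowered 4 of 20 in cis cells, beside 37.6% and 37.4%. GDF15 (2.39), the sestrin SESN2 (1.81) and the BH3 protein BBC3 (1.78) were among those raised. In wt cells deprivation raised 6 and lowered 6 of 20, near the 24.1% and 25.1% of all genes.

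The 12 cell cycle genes that p53 represses through the DREAM complex moved opposite to the members in wt cells. All 12 were lower with carboplatin (39.0% of all genes), with a median of -2.01. The mitotic kinesin KIF20A (-3.17), the cyclin CCNB2 (-2.79) and the centromeric histone CENPA (-2.70) were lowest. In cis cells 9 of 12 were lower (10.8% of all genes), with a median of only -0.17. The response of all 12 was higher in cis than in wt (30.3% of all genes, median difference 1.88). In cis -SG carbo all 12 were lower than in cis -SG (11.6% of all genes, median -0.52). Deprivation alone lowered all 12 in cis cells (37.4% of all genes, median -1.38), with KIF20A at -2.20. It lowered 11 of 12 in wt cells (25.1% of all genes, median -0.31). In cis SSP cells over all libraries none of the 12 was called by edgeR for carboplatin in either medium or for deprivation. Carboplatin raised 1 and lowered 5 without library 25 in complete medium, and raised 1 and lowered 7 without library 32 in deprived cells. Without both libraries deprivation raised 4 and lowered 2.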

How the data were processed

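RNA of 36 libraries (12 conditions of 3) was sequenced with the SENSE Total RNA-Seq kit. The deposited values are raw counts per gene. To make them the authors used STAR on GRCh37.p13 for alignment and HTSeq for counting on GENCODE exons, per the study's methods and the submitters' processing notes. Strand setting and treatment of multi-mapping reads are not given in the sources used here. The 3 entries that name no gene (4.21% to 17.9% of a library for reads on no feature) stayed out of library sizes and tests. Symbols and positions came from GENCODE lifted to GRCh37, which matched 55538 of 57820 identifiers. Groups follow the sample labels. All pairs of libraries within a condition were compared (mean chi-square per gene at least 1.20), and none was counted as a repeat of another.

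Each comparison was fitted on its own libraries with edgeR 4.0.16 in R 4.3.3 (TMM, filterByExpr, estimateDisp, robust glmQLFit, glmQLFTest, Benjamini-Hochberg threshold 0.05), and differences of responses as an interaction term over 4 conditions. The standard error is the absolute log2 fold change over the square root of F. CPM (counts scaled to an effective library size) used TMM over the 36 libraries, and TPM used exon lengths. Folds against at most 3 counts are lower bounds. Scripts were tested on simulated data. Alternatives were DESeq2 1.42.0 (Wald test, named in the study's methods), DESeq2's size factors, total counts, no filter, one fit over 36 libraries and each library left out. Fits without libraries 25 and 32, or 23 and 24, were added after seeing the data.

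The members and lists were chosen with earlier results of these data known. Values per library were given for MDM2 and for the called members with the largest change, at most 6 in each direction for carboplatin in wt cells and 3 for other comparisons, plus a few members chosen after their values were seen (TP53I3, PPM1D, TP53INP1, DDB2, DRAM1). Of other lists at most 3 genes per direction were named. The lists DUSP14 and PECAM1 belong to were used without these genes, which no symbol matched. Counting limits precision: bounds cover counting error only.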

Additional observations from a re-analysis of the deposited data

Results flagged for a closer look

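Every result here was picked out because the same treatment acted differently in lines or media by an edgeR interaction term, and the size is the log2 difference of the responses.

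The response to carboplatin differed between cis and wt cells for 31 of the 34 members that passed the filter on low counts in both. In cis the response was lower for 26 (76.5%) and higher for 5 (14.7%), beside 29.8% and 34.8% of the genes that passed in both. It was higher in cis for DDB2 (0.57), CCNG1 (0.51) and MDM4 (0.48), and lower for FAS (-2.86), PLK2 (-2.49) and TP53I3 (-1.70). DDB2 stood above all cis libraries in 3 of 3 cis carbo libraries.

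Without serine and glycine, cis cells answered carboplatin differently for 17 of 34 members. The response was lower for 15 (44.1%) and higher for 2 (5.88%), beside 6.83% and 6.49% of the genes that passed in both media. APAF1 (0.44) and FBXO22 (0.19) were higher, and INKA2 (-0.72), GADD45A (-0.53) and CYFIP2 (-0.49) were the lowest. CYFIP2 was at 113 to 122 CPM in cis -SG and at 26.7 to 30.8 CPM in cis, and whether this bears on its response was not tested.

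Deprivation acted differently on cis and wt cells for 27 of the 34 members that passed the filter in both. CYFIP2 (1.96), GADD45A (1.57) and INKA2 (1.38) rose by more in cis, and DDB2 (-1.12), APAF1 (-0.96) and CCNG1 (-0.48) were lower. DDB2 and CCNG1, which were called higher in wt -SG, were called lower in cis -SG.

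Between cis SSP and cis cells 2 members had a higher response to carboplatin, FAS (0.94) and DRAM1 (0.58), when 0.423% of all genes were higher and 0.0832% lower. Without library 25 there were 28, when 9.38% of all genes were higher and 4.89% lower.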

How the results depend on the processing

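Counts of called members kept their side within 1.5 times under DESeq2's size factors, total counts and no filter in all 15 comparisons. A single fit over 36 libraries, which shares 1 spread, called 17 members for carboplatin in cis beside 33 in wt, 28 in cis SSP, 16 in cis -SG and 32 in cis SSP -SG, 8 for deprivation of wt and 4 of cis SSP, 18 between cis SSP and cis, and 8 and 4 for the differences of the carboplatin response between cis SSP and cis and between media in cis. Of all genes that fit called 1.31% higher and 1.1% lower for carboplatin in cis, and 27.3% and 26% in wt. The shares were 8.46% and 10.1% in cis SSP, 4.14% and 2.7% in cis -SG, and 7.91% and 9.24% in cis SSP -SG. For deprivation they were 8.55% and 8.36% in wt and 4.79% and 4.38% in cis SSP. Between cis SSP and cis they were 25.8% and 22%, with 18 of 36 members called. For response differences they were 1.24% and 0.444% between these lines, and 0.198% and 0.474% between media. DESeq2 called 22 for carboplatin in cis SSP and 6 for its difference from cis. Of all genes DESeq2 called 2.81% higher and 1.54% lower for the first, and 1.3% and 0.199% for the second. Without both libraries 25 and 32, 16 members were called for deprivation of cis SSP. The causes were not tested.

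With 1 library left out, counts ranged from 1 to 32 for carboplatin in cis SSP and 0 to 33 in cis SSP -SG. They were 1 to 22 between cis SSP and cis, and 2 to 28 for the difference of responses between them. The highest count was always without library 25 or 32. Of all genes, 0.0636% were higher and 0.0% lower for carboplatin in cis SSP without library 28, and 21.9% and 19.2% without library 25. In cis SSP -SG the shares were 0.0146% and 0.00729% without library 31, and 21.1% and 19.9% without library 32. Between cis SSP and cis they were 7.99% and 6.52% without library 13, and 32.9% and 32.5% without library 25. For the difference of responses they were 0.19% and 0.0203% without library 16, and 9.38% and 4.89% without library 25. The ranges were 34 to 35 for carboplatin in wt, 29 to 32 in cis, 31 to 32 in wt -SG, 24 to 30 in cis -SG, 20 to 23 and 29 to 31 for deprivation of wt and cis, 28 to 30 between cis and wt, 32 to 34 and 26 to 27 for the line differences in response to drug (33 over all libraries, with PRDM1 and TP53INP1 counted) and medium, and 14 to 21 for the difference between media.

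Of the fitted log2 fold changes, 3644 kept direction and side of the threshold when 1 library was left out, 232 lost a call, 95 gained one and 1 reversed: the difference of the carboplatin response of TP53I3 between cis SSP and cis was -0.03, ranged from -0.179 to 0.256 with 1 library left out, and took the highest value (adjusted p = 0.00921) without library 25. DESeq2 left 478 on the same side, with 23 calls gained and 21 lost. No paired analysis was possible because the labels give no replicate numbers within a condition. Counts under about 3 per library limit PHLDA3, PRDM1 and TP53INP1 in the cis lines, and 3 libraries per condition limit all tests.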

Other observations

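Some pathway genes outside the 37 members differed widely between the untreated lines. PERP, a p53 target of cell junctions, had 0.125 ± 0.0782 CPM in wt (SD, n = 3), a higher 44 ± 1.34 CPM in cis and 3.55 ± 0.894 CPM in cis SSP. PMAIP1, a BH3-only protein, was higher in cis, from 1.52 ± 0.236 CPM (wt) to 16.6 ± 0.863 CPM (cis) (log2 3.41 ± 0.128), and the interferon-induced TRIM22 had 5.58 ± 0.579 CPM (wt) and 0.249 ± 0.224 CPM (cis). Of the 21 other p53 targets tested, 10 were higher and 8 lower in cis than in wt, with a median of -0.004, where 39.4% of all genes were higher and 39.1% lower.

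Of the 22 regulators of p53 tested, 11 were higher and 6 lower in cis, among them the deacetylase SIRT1 (log2 2.27 ± 0.0283), the kinase HIPK2 (2.23 ± 0.0801), the p53 relative TP73 (2.29 ± 0.095) and the nuclear body protein PML (-1.32 ± 0.0446). With carboplatin 10 of 22 were higher and 8 lower in wt cells (38.9% and 39.0% of all genes), and 1 higher and 3 lower in cis cells (9.27% and 10.8%), so the regulators were called about as often as other genes. In wt cells HIPK2 rose (1.67 ± 0.079) and the checkpoint kinase CHEK1 fell (-1.62 ± 0.0508), and in cis cells CHEK1 fell by 0.25 on the log2 scale while HIPK2 was at -0.10 ± 0.0682 and was not called. Deprivation raised 5 and lowered 12 of 22 in cis cells (37.6% and 37.4% of all genes), and raised 5 and lowered 6 in wt cells (24.1% and 25.1%).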
